A study of Aedes aegypti with 33 samples.

Results

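The comparison described here set Aag2 cells, a continuous line of the yellow fever mosquito Aedes aegypti, kept for 72 h in Schneider’s medium with 10 μM heme but no fetal bovine serum (FBS), against the same cells in that medium with FBS, which the study calls regular growth media. The members were chosen by their labels as the libraries of these 2 treatments, which gave 6 of the 33 libraries of the series, 3 biological replicates each. A group of 3 libraries without FBS and without added heme (0 μM heme) was fitted with them, and its levels are given beside the comparison. Both treatments used the same cell line, and the heme treatment differed from the FBS treatment in the added heme and in the absence of serum. Serum and heme therefore cannot be told apart in this comparison. From its uptake assay of a heme analog, the study proposes that serum brings the regular growth media above 10 μM heme. The FBS treatment is thus not a heme-free state, and its heme content is not given by the labels. Polyadenylated RNA was sequenced and counted per gene, and the labels do not say whether the replicates came from separate cultures, so p-values measure the spread between these libraries.

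Heme is the iron-carrying cofactor of hemoglobin, cytochromes and many oxygen-handling enzymes. A female mosquito that digests blood releases large amounts of heme in the gut, and free heme damages membranes and proteins by promoting oxidation. Cells answer to heme by limiting its synthesis, breaking it down, storing the released iron, moving it across membranes and conjugating or exporting reactive products. The comparison was part of a search for membrane proteins that carry heme in this mosquito.

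The libraries held 27282307 to 31588247 counts with FBS and 23104043 to 25805959 counts in 10 μM heme, with 16083 to 16373 genes detected in each of these 6 libraries. The 10 genes with the most counts took 9.71% to 9.93% of the counts of a library. Of the markers searched by name for other cell types, the only named entries were midgut digestive proteases. AAEL002273, a putative trypsin, had 943 to 1050 counts with FBS and 279 to 376 in 10 μM heme, and AAEL009853 had 0 to 13 counts in these 6 libraries. No hemocyte, muscle, neuron, fat body or germline marker was among the names used here, so the identity of the line was not tested by markers. Gene functions are those that the annotation of the study gives, and they were held for 791 genes. That annotation was ordered by expression patterns found in these same libraries and was held only in part. The annotated genes are therefore not a sample of all genes. For 19 genes the name came from the text of the study alone. Among them were AAEL008467, AAEL014246, AAEL006113 and AAEL014762, which that text names as changing with heme. So were AAEL006855 and AAEL012395, which it lists as higher with heme in midguts. Counts of the lists that hold these genes follow in part from that choice. Of the 788 annotated genes tested, 297 (37.7%) fell and 26 (3.30%) rose with a false discovery rate (FDR) under 0.0001, and the counts of the gene lists are read beside these shares.

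Of 13171 genes tested, 1818 (13.8%) passed an FDR of 0.0001 in edgeR’s quasi-likelihood test. In 10 μM heme, 834 genes (6.33%) were higher and 984 (7.47%) were lower than with FBS. The rises were the larger changes. A change of more than 2-fold was held by 503 called genes (3.82% of those tested), 376 of them higher and 127 lower. More than 4-fold separated the treatments for 141 higher and 16 lower genes, and more than 8-fold for 63 higher and 2 lower genes. The median called gene rose 1.86-fold or fell 1.41-fold. The libraries of the 2 treatments were fully separated for all 1818 called genes, and for 53.6% of the 13171 tested. Scaling by library size alone, without the TMM correction, shifted the median gene by 0.106 on the log2 scale and turned the split into 1134 higher and 616 lower, so that the number of small falls depends on the scaling.

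**Figure D1:**
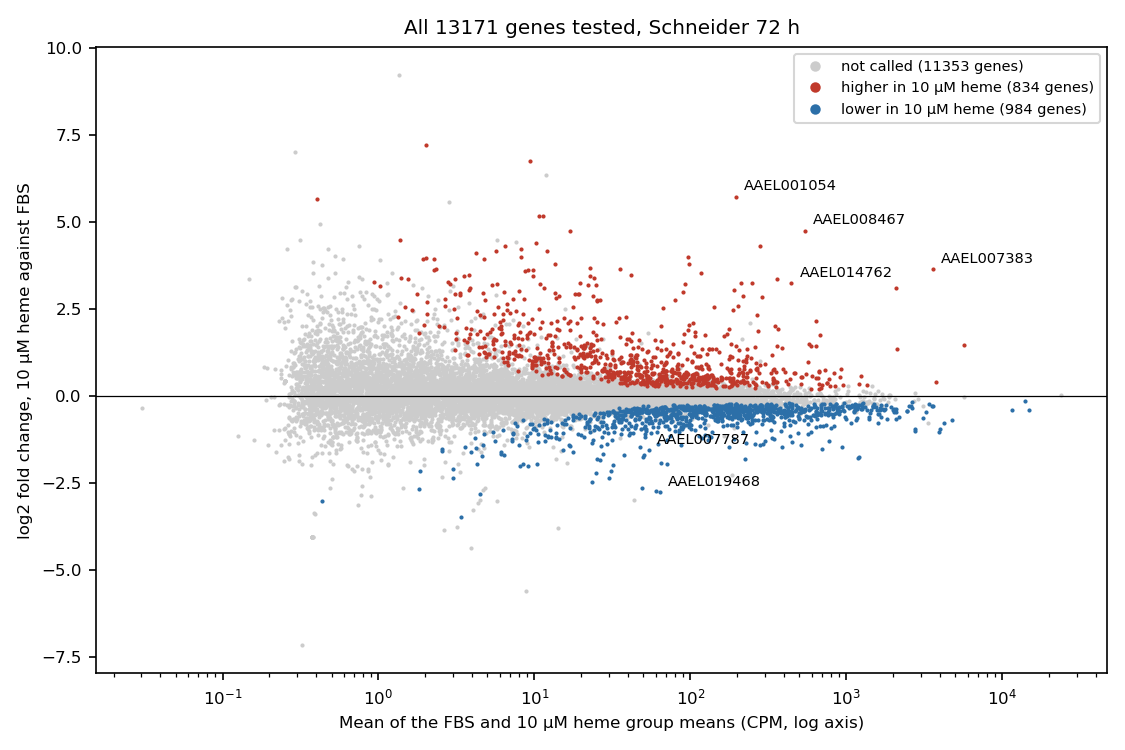
Each point is 1 of the 13171 genes tested, with the mean of the 2 group means in CPM, counts scaled to the library size, on a log axis against the log2 fold change between 10 μM heme and FBS. The 834 called rises reach farther from 0 than the 984 called falls, and the falls lie closer to the line among genes of high level.

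The falls were concentrated among abundant genes. Above a mean of 100 CPM, 587 of 1932 genes tested (30.4%) fell and 248 (12.8%) rose. Between 1 and 10 CPM, 40 of 4154 genes (0.963%) fell and 149 (3.59%) rose. Detection of small changes grows with the level, and the part of this in the uneven split was not tested. The 834 genes called higher took 6.80% to 7.07% of the counts with FBS, 7.26% to 7.42% in 0 μM heme and 13.9% to 14.3% in 10 μM heme. The 984 genes called lower took 41.4% to 41.8%, 40.3% to 40.5% and 31.8% to 32.3% in the same order. These shares follow from how the genes were chosen and are given as a description.

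The largest changes are given for genes with a mean of at least 10 CPM over the 6 libraries. Among annotated genes, AAEL008467, a cysteine synthase, rose the most. It measured 72.7, 21.2 and 23.2 CPM with FBS, 7.73, 8.47 and 8.59 CPM in 0 μM heme, and 1058, 1095 and 987 CPM in 10 μM heme. The log2 fold change from FBS to 10 μM heme was 4.75 (SE 0.40, FDR 2.71e-06). Without FBS replicate 1, which stood above the other 2, it was 5.55. Cystinosin (AAEL006113), known in mammals as the carrier that exports cystine from lysosomes, also belongs to the supply of cysteine. Its levels were 40.5 ± 3.96 CPM (SD, n = 3) with FBS, 18.7 CPM in 0 μM heme and with 10 μM heme 152 ± 7.09 CPM, a log2 fold change of 1.91 (SE 0.071, FDR 6.70e-09). The list of glutathione and cysteine supply also holds gamma-glutamyl hydrolase (AAEL000271), which trims glutamate chains and was listed by a match of its name alone. It fell by 0.59 on the log2 scale (FDR 2.34e-05) and lost its call under library size alone.

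Of 3 annotated glucosyl or glucuronosyl transferases 2 passed as higher. The larger riser, AAEL014246, was named from the study's text on genes that change with heme, so this count is a description. These enzymes attach sugars to small hydrophobic molecules and so make them easier to excrete. AAEL014246 measured 33.6, 21.0 and 25.6 CPM with FBS and 528, 551 and 519 CPM in 10 μM heme, with 11.0 to 14.7 CPM in 0 μM heme. All 3 heme libraries were far above all 6 others, and the log2 fold change against FBS was 4.32 (SE 0.15, FDR 4.53e-09). AAEL001816 rose less, from 29.7 ± 1.32 to 53.1 ± 8.75 CPM (SD, n = 3), a log2 fold change of 0.84 (FDR 6.00e-05) that lost its call under 9 of 18 alternatives, among them leaving out any library with FBS. A further member, AAEL000687, measured 20.1 and 24.8 CPM and did not pass (FDR 0.0166).

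Iron handling was represented by 4 annotated genes, of which 1 rose and 1 fell. AAEL014762 is annotated as a ZIP family transporter. The study describes it as an iron transporter of endocytic vesicles with a part in iron export from the midgut. It measured 110.9, 70.7 and 72.4 CPM with FBS, 59.1 to 64.2 CPM in 0 μM heme, and 779, 855 and 767 CPM in 10 μM heme. This was a log2 fold change of 3.24 (SE 0.15, FDR 2.59e-08). A zinc/iron transporter, AAEL013756, measured 22.7 ± 1.16 and 30.7 ± 3.60 CPM (SD, n = 3) and did not pass (FDR 0.00135). Transferrin (AAEL011641), an iron-binding protein that is secreted in insects, measured 49.3 ± 2.09 and 74.8 ± 11.3 CPM and did not pass either (FDR 0.000325). Mitochondrial aconitase (AAEL012897), an iron-sulfur enzyme of the citric acid cycle, fell by 0.30 on the log2 scale (FDR 1.69e-05), a call lost under library size alone.

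Heme synthesis was represented by 3 annotated enzymes. AAEL007787, 5-aminolevulinic acid synthase, lies on chromosome 3 of the AaegL5 assembly from 133488369 to 133516968 and starts the pathway, at the step that heme is known to repress in mammals. Its libraries read 77.8, 84.5 and 80.8 CPM with FBS, 73.3, 84.0 and 80.5 CPM in 0 μM heme, and 29.3, 27.6 and 25.8 CPM in 10 μM heme. Between 0 μM heme and FBS the log2 difference was -0.03 and did not pass (SE 0.059, FDR 0.759), and the level fell by 1.56 on the log2 scale between FBS and 10 μM heme (SE 0.062, FDR 1.02e-08). The later enzymes changed less. Porphobilinogen synthase (AAEL002304) had a log2 fold change of -0.32 (FDR 0.000148) and coproporphyrinogen III oxidase (AAEL013389) of -0.35 (FDR 0.000324), and neither passed. No annotated heme oxygenase, the enzyme that opens the heme ring, was among the names used here.

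Transporters of the ATP-binding cassette family, which pump lipids, metabolites and foreign compounds across membranes, moved in both directions. Of 10 annotated members, 4 rose and 2 fell, where 3.30% of all annotated genes rose and 37.7% fell. The name of the riser AAEL012395 came from the study's list of midgut genes that change with heme, so this count is a description. The largest rise was that of AAEL005045, annotated as an ATP-dependent bile acid permease, from 0.961 to 15.5 CPM (log2 4.01, FDR 4.42e-08). Its namesake AAEL005043 went from 0.136 to 1.43 CPM and did not pass (FDR 0.00247). AAEL000434, named as an orthologue of a tick heme transporter of this family, rose from 6.70 ± 1.06 to 13.7 ± 1.27 CPM (SD, n = 3), a log2 fold change of 1.03 (FDR 4.18e-05). The study, by contrast, reports no differential expression of this gene in its analyses. AAEL012395 read 208, 225 and 208 CPM with FBS and 341, 336 and 339 CPM in 10 μM heme (log2 0.66, FDR 3.32e-07). AAEL008624 rose by 0.81 on the log2 scale (FDR 7.89e-05). AAEL000434 and AAEL008624 each lost the call under 10 of 18 alternatives, among them the fit of the 6 libraries alone, the replicate block and, for AAEL000434, leaving out any library of 10 μM heme and, for AAEL008624, any with FBS. The 2 members that fell were AAEL005929 (log2 -0.60) and AAEL014699 (log2 -0.35), and the second lost its call under library size alone.

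Further annotated rises above 10 CPM concerned a receptor and enzymes of nucleotide and sugar metabolism. AAEL012796 is annotated as GPRGHP3, a G protein-coupled receptor of the growth hormone releasing hormone family. It measured 3.97, 4.21 and 3.37 CPM with FBS and 62.1, 38.9 and 24.6 CPM in 10 μM heme, so the heme libraries differed more among themselves than for the enzymes above, and the log2 fold change was 3.44 (SE 0.29, FDR 2.35e-06). Adenylate kinase 3 (AAEL000629), a mitochondrial enzyme that balances nucleotides, rose from 8.08 to 18.5 CPM (log2 1.20, FDR 1.91e-06). The UDP-galactose transporter AAEL006855, of a family that feeds sugar nucleotides into the Golgi, rose from 114 ± 4.49 to 239 ± 6.30 CPM (log2 1.07, FDR 7.25e-09). Its name came from the study's list of midgut genes that change with heme. Among smaller rises were 6-phosphogluconate dehydrogenase (AAEL005931), which yields NADPH in the pentose phosphate pathway, at a log2 of 0.72, and adenylsulphate kinase (AAEL005605), which makes the activated sulfate used by sulfotransferases, at 0.41.

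Most of the largest rises belonged to genes for which no name was held here. AAEL001054 had the largest among genes with a mean of 10 CPM or more, with 6.49, 6.22 and 8.88 CPM with FBS, 2.17 to 2.88 CPM in 0 μM heme, and 426, 422 and 303 CPM in 10 μM heme (log2 5.73, SE 0.17, FDR 1.33e-09). AAEL007299 and AAEL025631 were close to undetected with FBS, at 0.356 to 0.712 and 0.486 to 0.704 CPM. They reached 18.3 to 22.7 and 16.9 to 31.4 CPM in 10 μM heme, with log2 fold changes of 5.17 and 5.16. Among the most abundant rises, AAEL007383 went from 788, 397 and 410 CPM to 6492, 6840 and 6565 CPM (log2 3.64, SE 0.23, FDR 2.61e-07). AAEL007385 went from 541, 380 and 372 CPM to 3548, 3852 and 3736 CPM (log2 3.11, SE 0.12, FDR 9.31e-09). AAEL001061 rose from 3028 to 8309 CPM (log2 1.46), AAEL026751 from 1189 to 3032 CPM (log2 1.35) and AAEL019604 from 3265 to 4296 CPM (log2 0.40). AAEL019604 was already at 4115 CPM in 0 μM heme, a log2 change of 0.33 from FBS (FDR 2.07e-05).

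The first FBS replicate stood above replicates 2 and 3 for AAEL008467, AAEL007383, AAEL007385, AAEL014762 and AAEL014246. It was the highest of its group for 51.9% of the 376 genes that rose more than 2-fold, against 34.5% of all genes tested. Leaving it out left 1471 called genes, and the log2 fold changes of AAEL007383 and AAEL014762 became 4.03 and 3.48.

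**Figure D2:**
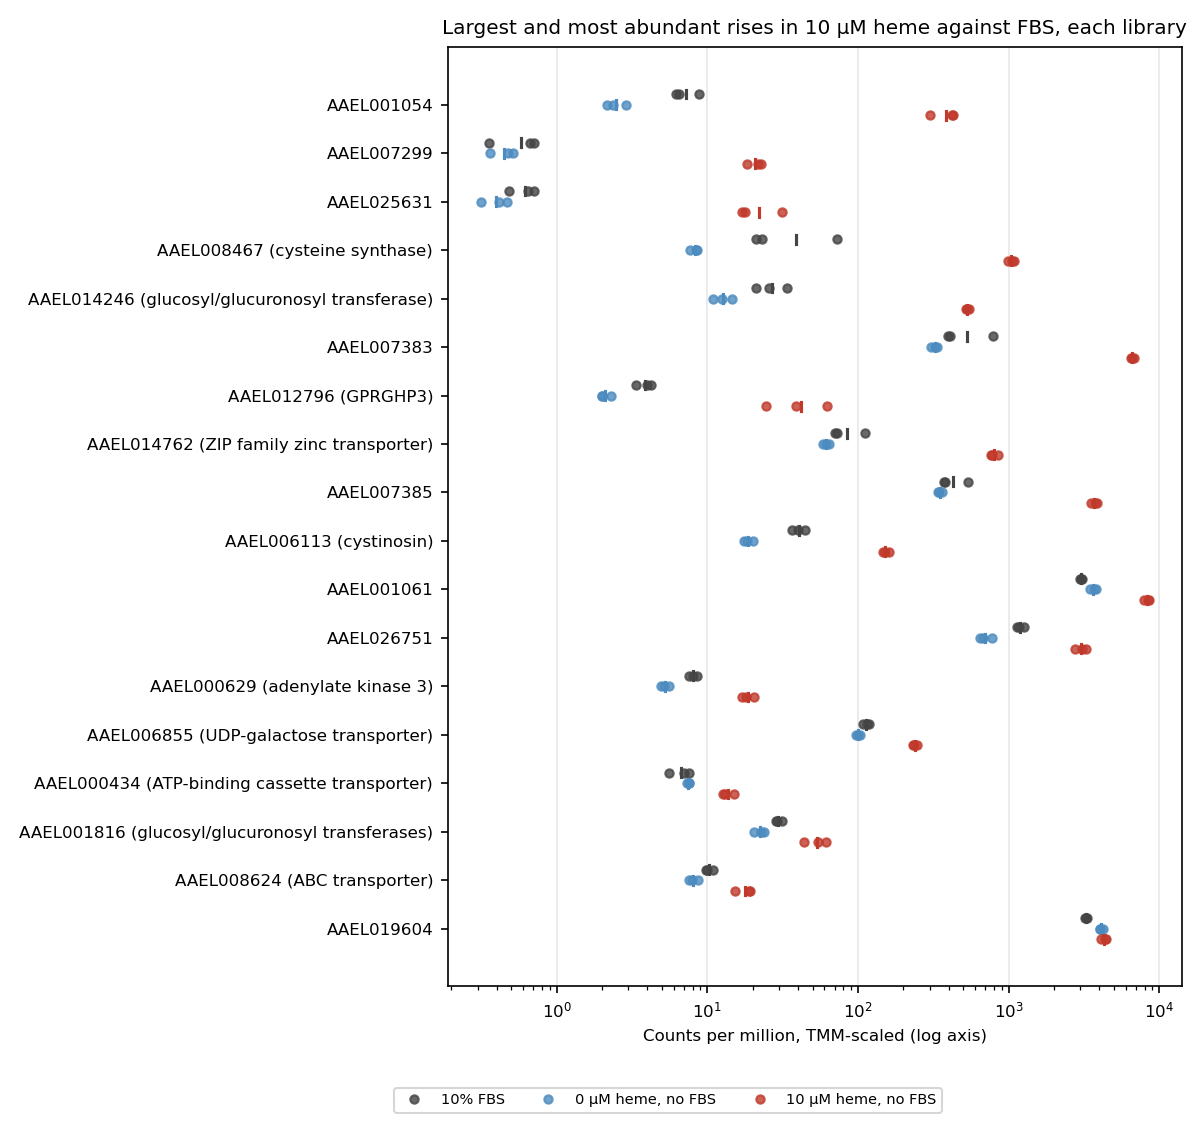
CPM after TMM scaling (log axis) in each library, for the largest and the most abundant rises between 10 μM heme and FBS, with short vertical bars at the group means. The 3 heme libraries of each gene lie to the right of its 3 libraries with FBS, and for AAEL008467 FBS replicate 1, at 72.7 CPM, lies apart from the others at 21.2 and 23.2 CPM.

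Among the falls of genes with a mean of 10 CPM or more, the 3 largest belonged to genes without a name held here. AAEL019468 measured 109, 115 and 110 CPM with FBS, 139 CPM in 0 μM heme and, with 10 μM heme, 13.8, 16.4 and 19.2 CPM (log2 -2.76, SE 0.089, FDR 2.65e-09). AAEL000871 fell by 2.72 and AAEL003443 by 2.65 on the log2 scale. AAEL003443 stood at 201 to 222 CPM in 0 μM heme, above the 79.1 to 89.8 CPM with FBS (log2 1.34, FDR 1.10e-05), so the levels in the 2 serum-free groups lay on either side of the serum level.

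The annotated genes with the largest falls above this mean were of several kinds. Crumbs (AAEL009093), a membrane protein that sets apical polarity in Drosophila epithelia, measured 46.7, 47.9 and 57.7 CPM with FBS and 11.4 ± 0.711 CPM (SD, n = 3) in 10 μM heme (log2 -2.15, SE 0.13, FDR 2.04e-07). Nidogen (AAEL007226), a link protein of basement membranes, measured 49.2, 48.9 and 55.0 CPM and 12.7, 11.9 and 14.6 CPM (log2 -1.97, SE 0.078, FDR 9.31e-09). In 0 μM heme nidogen was at 50.2 CPM and crumbs at 37.6 CPM. Patched 1 (AAEL002850), known in Drosophila as the Hedgehog receptor, fell from 424 ± 12.4 to 164 ± 0.912 CPM (SD, n = 3; log2 -1.37), with 267 CPM in 0 μM heme. The yellow protein precursor AAEL007374, of a family known from Drosophila pigmentation, fell by 1.80 on the log2 scale, and the guanyl-nucleotide exchange factor AAEL007559 by 1.61.

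The nuclear receptor HR4 (AAEL005850), which acts in the response to ecdysone in Drosophila, measured 58.1, 57.9 and 55.2 CPM with FBS and 17.3, 19.1 and 16.6 CPM in 10 μM heme (log2 -1.69, FDR 1.76e-08). CYP307A1 (AAEL009762), a cytochrome P450 of ecdysteroid synthesis, was at 88.8 CPM with serum, 88.9 CPM in 0 μM heme and, with 10 μM heme, 34.4 CPM (log2 -1.37, FDR 4.43e-08). CYP18A1 (AAEL004870), which inactivates ecdysteroids, fell by 1.13 on the log2 scale (FDR 8.15e-05), a call lost under 11 of 18 alternatives. The putative ecdysone inducible protein L2 (AAEL002130) fell by 1.10 on the log2 scale, from 772 ± 63.2 to 362 ± 16.7 CPM (SD, n = 3). In L-15 medium, described further on, CYP307A1 and AAEL002130 rose, by 1.67 and 1.27 on the log2 scale. HR4 fell there as well, by 1.53 (FDR 5.78e-05). Of 8 annotated cytochrome P450 genes, 3 fell (37.5%, against 37.7% of all annotated genes), 1 rose and 4 did not pass. P450 enzymes carry heme themselves, and the one that rose was CYP4D24 (AAEL007815), from 4.36 to 9.25 CPM (log2 1.09), a call lost under 9 of 18 alternatives.

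**Figure D3:**
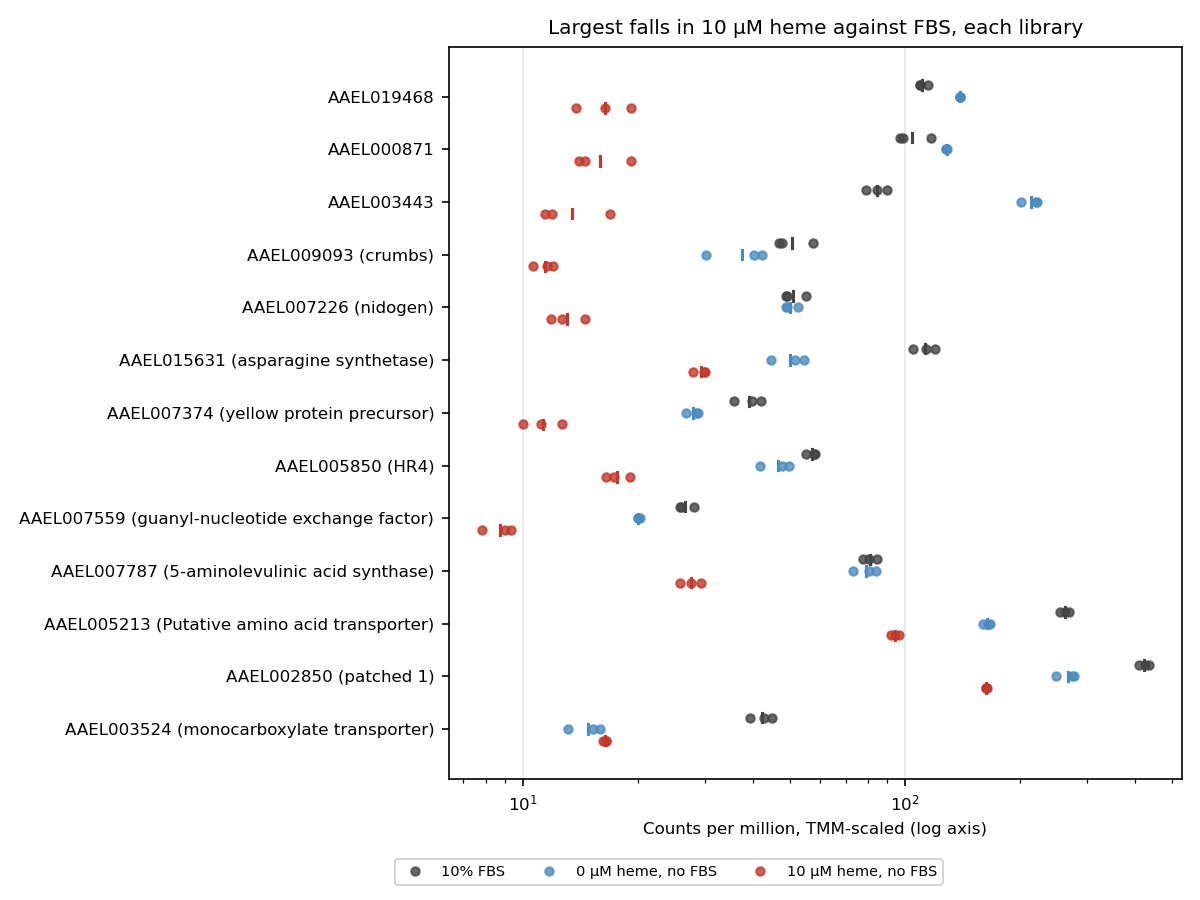
CPM after TMM scaling (log axis) in each library, for the largest falls, with short vertical bars at the group means. For 5-aminolevulinic acid synthase and nidogen the 0 μM heme libraries lie with the FBS libraries, whereas for the monocarboxylate transporter AAEL003524 they lie with those of 10 μM heme.

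Some falls were already present without serum and without heme. The monocarboxylate transporter AAEL003524, of a family that carries lactate, pyruvate and related acids, measured 44.9, 42.9 and 39.3 CPM with FBS, 13.2 to 15.9 CPM in 0 μM heme and, with 10 μM heme, 16.2 to 16.6 CPM. Its log2 fold change was -1.52 for 0 μM heme (FDR 1.04e-06) and -1.37 for 10 μM heme (FDR 1.40e-07), and the 2 groups without serum did not pass against each other (log2 0.15, FDR 0.143). Asparagine synthetase (AAEL015631), which makes asparagine from aspartate, went from 113 CPM through 50.2 CPM to 29.2 CPM in 10 μM heme (log2 -1.95, FDR 7.98e-09). In the test of 0 μM heme against FBS, where 2.5% of genes tested passed, its log2 fold change was -1.17 (FDR 2.35e-06).

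Of 12 annotated carriers of amino acids 5 fell (41.7%, near the 37.7% of all annotated genes) and none rose, and library size alone made 1 a rise. The putative amino acid transporter AAEL005213 fell from 262 ± 7.26 to 94.2 ± 2.15 CPM (SD, n = 3; log2 -1.48, FDR 5.48e-10), with 164 CPM in 0 μM heme. AAEL014161 and AAEL002525 fell by 1.10 and 1.07 on the log2 scale. The sodium/chloride dependent carrier AAEL003619, below the mean of 10 CPM, had the largest fall of any annotated gene and was nearly lost without serum, at 6.24 CPM with FBS, 0.627 CPM in 0 μM heme and, with 10 μM heme, 0.559 CPM (log2 -3.46, FDR 2.06e-07), and the 2 groups without serum did not pass against each other (FDR 0.653). Of 5 monocarboxylate transporters 2 fell, and of 8 sugar transporters none passed.

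Genes of translation fell together by small amounts. Of 34 annotated cytosolic ribosomal proteins, 32 fell and none rose, with a median log2 fold change of -0.35. Of 14 translation initiation factors 13 fell (median -0.52), of 14 tRNA synthetases 8 fell (median -0.35), and of 5 genes of ribosome biogenesis 2 fell. Over all 788 annotated genes tested the median was -0.28, while the median over all genes tested was 0.01. The high share of falls among annotated genes follows in part from the order of the annotation, so these counts are a description of the lists. Scaled by library size alone, 17 ribosomal proteins, 10 initiation factors and 7 tRNA synthetases still fell.

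Single genes show the size of these changes. The acidic ribosomal protein P1 (AAEL003530) measured 1901, 1800 and 1948 CPM with FBS and 1310, 1329 and 1325 CPM in 10 μM heme (log2 -0.51, SE 0.029). Valyl-tRNA synthetase (AAEL004327), which charges tRNA with valine, fell from 1078 ± 50.8 to 590 ± 13.4 CPM (SD, n = 3; log2 -0.87), and the initiation factor AAEL007718 from 956 to 534 CPM (log2 -0.84). Elongation factor 1-alpha (AAEL017096), among the most abundant transcripts, fell from 16940 ± 511 to 12890 ± 403 CPM (log2 -0.39, FDR 4.25e-07), and elongation factor AAEL004500 from 13130 to 9858 CPM (log2 -0.41). Summed over the annotated ribosomal proteins, the share of counts was 4.48% to 4.55% with FBS, 4.23% to 4.27% in 0 μM heme and 3.81% to 3.90% in 10 μM heme. In such bulk libraries fewer cells of a kind and less RNA per cell cannot be told apart.

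Of 10 annotated genes of the cell cycle and DNA synthesis 6 fell (against 37.7% of all annotated genes) and none rose, and 4 fell under library size alone. The small chain of ribonucleoside-diphosphate reductase (AAEL010691), which makes the building blocks of DNA, went from 176, 187 and 204 CPM to 80.9, 82.7 and 88.7 CPM (log2 -1.17, SE 0.069, FDR 1.64e-07). Thymidine kinase (AAEL014055) fell by 0.60, cyclin A (AAEL000672) by 0.48 and the licensing factor MCM2 (AAEL007007) by 0.49 on the log2 scale. The other licensing factors MCM3, MCM5 and MCM7 had log2 fold changes of -0.17, -0.14 and -0.12 and did not pass. The repair protein XP-C/RAD4 (AAEL003893), which recognises damaged DNA, fell by 1.15, lipin (AAEL005175), a phosphatidate phosphatase of lipid synthesis, by 1.16 and the short caspase CASPS19 (AAEL003444) by 1.08, a call lost when any library with FBS was left out.

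Of 11 annotated heat shock proteins and chaperonins 5 fell (45.5%, near the 37.7% of all annotated genes) and none rose, where 3.30% of all annotated genes did. The largest fall was that of AAEL013341, a small heat shock protein of the l(2)efl family, from 132 ± 1.96 to 69.0 ± 5.85 CPM (SD, n = 3; log2 -0.94, FDR 1.22e-07). Superoxide dismutase (AAEL019937), thioredoxin peroxidase TPX4 (AAEL002309) and sulfiredoxin (AAEL003599), which act against reactive oxygen, had log2 fold changes of 0.00, -0.46 and -0.28, and none of the 3 passed. In mitochondria, succinate dehydrogenase (AAEL010608) and a cytochrome c oxidase polypeptide (AAEL014944) fell by 0.48 and 0.32 on the log2 scale, and the other 7 respiratory chain genes did not pass. The 2 that fell were 22.2% of this list, below the 37.7% of all annotated genes. The call of AAEL014944 was lost under 11 of 18 alternatives, among them library size alone. Of 12 annotated immune genes 2 fell (16.7%, also below the 37.7%). They were the JAK/STAT receptor Domeless (AAEL012471, log2 -0.88) and the lysozyme LYSC7B (AAEL015404, log2 -1.15, a call lost under 11 of 18 alternatives). The members MYD and PELLE of the Toll pathway did not pass. Actin, tubulin and myosin genes (6 members) did not pass, with a median log2 fold change of -0.02.

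**Figure D4:**
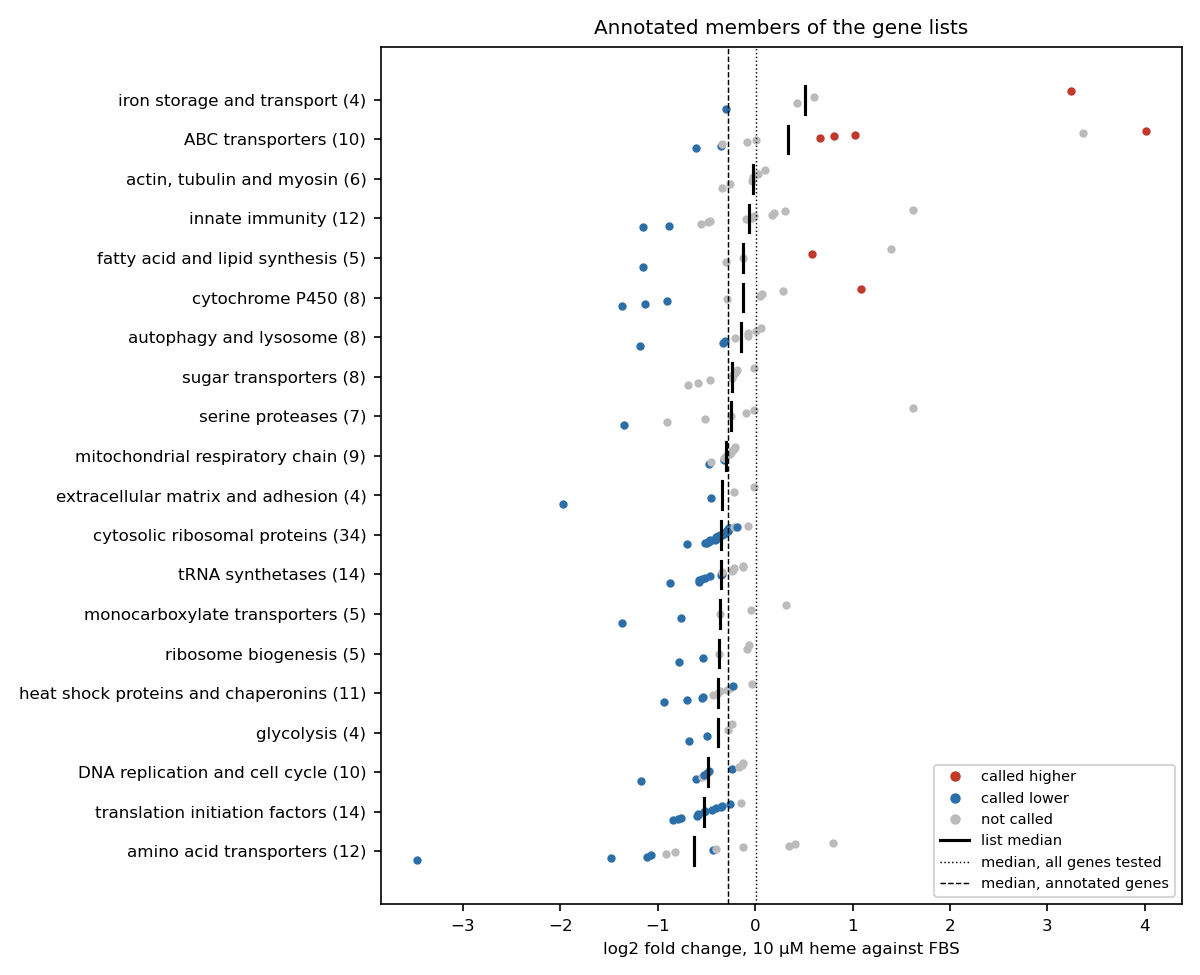
Log2 fold change between 10 μM heme and FBS for each annotated member of the lists with 4 or more members tested, coloured by its call, with the list median as a vertical bar. The ribosomal protein, initiation factor and tRNA synthetase members cluster a little below 0, and the single points far to the right are the ZIP transporter AAEL014762 at 3.24 and the permease AAEL005045 at 4.01.

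In Aag2 cells the study silenced 9 genes as candidate heme carriers, and 5 of them were called here, where 13.8% of all genes tested were. The study had chosen them as differentially expressed in midguts and in its cell experiments. For AAEL001495, AAEL008664 and AAEL012226 it lists this same experiment, so the count is a description. Of the 9, AAEL003619, AAEL012440, AAEL000461 and AAEL002557 fell, and AAEL008664 rose. The sodium-bile acid cotransporter AAEL012440 fell from 103 ± 1.98 to 56.6 ± 3.67 CPM (SD, n = 3; log2 -0.87, FDR 1.06e-07). AAEL008664 read 142, 133 and 139 CPM with FBS, 104 to 116 CPM in 0 μM heme and, with 10 μM heme, 226, 233 and 210 CPM (log2 0.69, FDR 1.00e-06). The monocarboxylate transporter AAEL000417, the gated ion channel AAEL004513, AAEL001495 and AAEL012226 did not pass, with log2 fold changes of -0.04, 0.47, 0.01 and -0.07. The organic cation transporter AAEL009206 and glutamate receptor 7 (AAEL009813) lay lowest in 0 μM heme, at 17.4 and 6.20 CPM. The study had picked both genes from this experiment as lower without heme and higher with it, so this low level follows from that choice. With serum these genes were at 43.7 and 14.5 CPM and in 10 μM heme at 36.0 to 40.1 and 14.4 to 16.7 CPM. Neither passed between the treatments with serum and with 10 μM heme (FDR 0.0328 and 0.313).

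The same contrast was made in a separate experiment in L-15 medium, with 3 libraries of Aag2 cells per treatment and no library in common. There 15.5% of genes tested passed as higher and 18.2% as lower in 10 μM heme. Of the genes called higher in Schneider’s medium and tested in L-15, 442 of 833 (53.1%) were called higher there and 67 (8.04%) were called lower. Of those called lower, 746 of 983 (75.9%) were called lower there and 30 (3.05%) higher. Read the other way, the 442 shared rises were 21.5% of the L-15 rises and the 746 shared falls were 29.3% of the L-15 falls among genes tested in both.

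AAEL007383, AAEL007385, AAEL014246 and AAEL014762 rose in L-15 medium by 3.71, 2.83, 5.79 and 2.55 on the log2 scale. AAEL007787, the 5-aminolevulinic acid synthase, fell by 0.93 there (FDR 3.09e-07). Nidogen and crumbs fell by 4.20 and 2.64. Asparagine synthetase did not pass in L-15 (log2 -0.01, FDR 0.925).

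The difference between the media was tested directly in a joint fit of 18 libraries, in which 2822 of 14332 genes (19.7%) passed. Each medium was run as a separate experiment, so medium and experiment cannot be told apart in this test. Of the 834 genes called higher in Schneider’s medium 332 (39.8%) and of the 984 called lower 536 (54.5%) passed this test. Of those rises, 238 were weaker or opposite in L-15 and 94 were larger. Of those falls, 127 were weaker or opposite and 409 were larger. The genes were called on the same Schneider libraries that enter this test, so these counts are a description. Over all genes the change was higher in L-15 for 1009 and lower for 1813, but library size alone gave 1845 and 983. CYP307A1 (AAEL009762) moved in opposite directions: on the scale of the joint fit it went from 95.1 ± 1.59 to 36.7 ± 4.28 CPM in Schneider’s medium and from 16.3 ± 2.28 to 52.3 ± 5.68 CPM in L-15 (SD, n = 3; difference 3.06, SE 0.13, FDR 4.44e-12). Ecdysone inducible protein L2 (AAEL002130) went from 828 to 386 CPM in the first medium and from 859 to 2082 CPM in the second (difference 2.38, FDR 2.23e-11). L-lactate dehydrogenase (AAEL012014), which interconverts pyruvate and lactate, went from 1520 to 943 CPM and from 877 to 2797 CPM (difference 2.36, FDR 4.45e-07), although its fall in Schneider’s medium lost its call under 8 of 18 alternatives. AAEL001816, the lesser of the sugar transferases that rose in Schneider’s medium, fell by 1.47 on the log2 scale in L-15 (difference -2.30, FDR 1.12e-08).

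**Figure D5:**
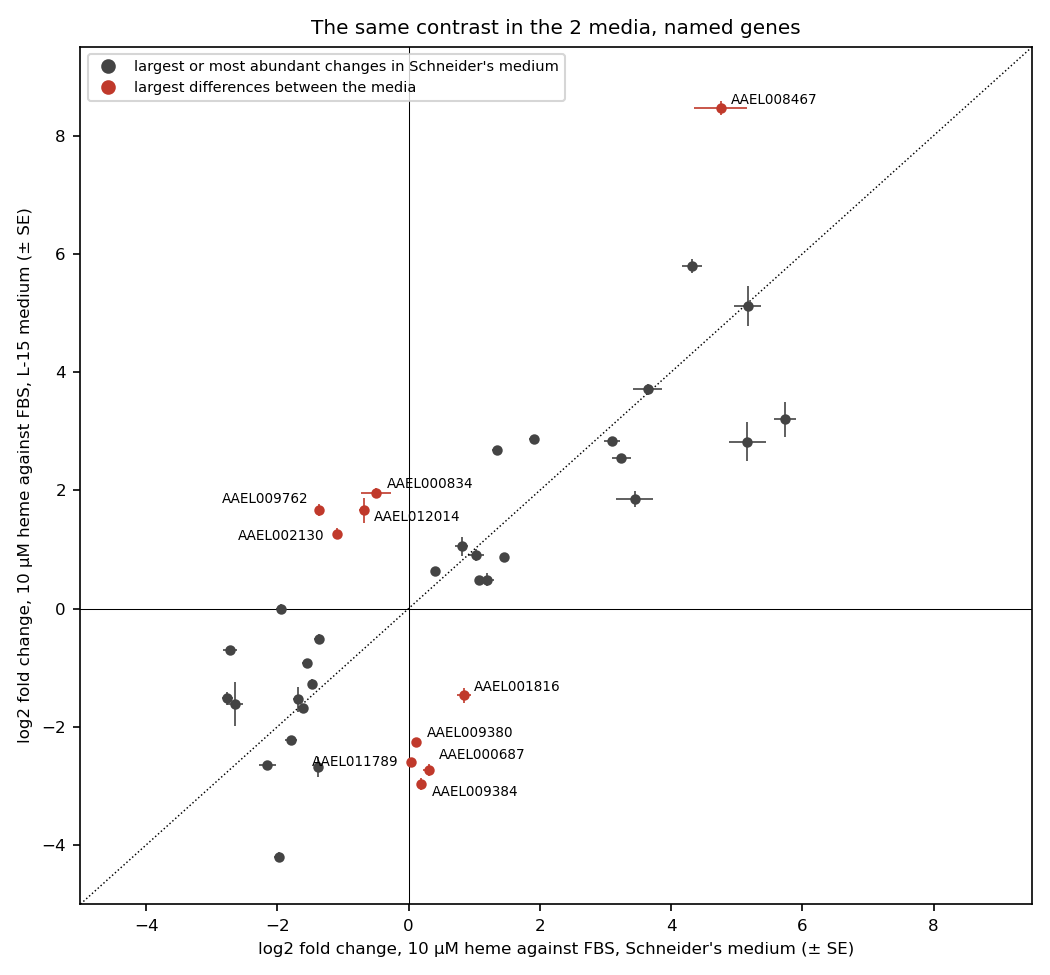
Log2 fold change between 10 μM heme and FBS in Schneider’s medium (horizontal, with SE) against the same contrast in L-15 medium (vertical, with SE) for named genes, with a dotted line of equal change. Black points are the largest or most abundant changes in Schneider’s medium, and red points the annotated genes with the largest called differences between the media, such as AAEL009762 at -1.37 and 1.67.

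A further experiment added 20 μM heme to Aag2 cells that kept their serum in Schneider’s medium, for 48 h. Dose, time, serum and library kit all differ, so its values stand beside the others without a test between them. There 0.583% of genes tested passed as higher and 0.183% as lower. Of the 70 genes that passed as higher, 53 (75.7%) were also among the 834, and these were 6.55% of the 809 tested in both. With serum kept, AAEL008467 rose by 7.10, AAEL014246 by 4.21, AAEL007383 by 3.50, cystinosin by 2.91, AAEL007385 by 2.39 and AAEL014762 by 1.87 on the log2 scale. The study's text names AAEL008467, AAEL014246, cystinosin and AAEL014762 for their change in this same 48 h experiment. The names held here for them come from that text, so their rises there are not independent of the choice. AAEL007787 fell by 1.17 (FDR 5.89e-06). Nidogen, HR4 and asparagine synthetase did not pass there, at log2 values of -0.41, -0.54 and -0.18. HR4 was low in that experiment, at 3.65 CPM with FBS alone and 2.52 CPM with 20 μM heme added.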

How the data were processed

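Per the labels and the study's methods, paired-end reads of polyadenylated RNA were aligned to the AaegL5 assembly with HISAT2 2.1.0 and counted per gene with bedtools 2.19.1, and the authors deposited the read counts without normalization. Whether strand was used in counting is not given in the sources used here, so overlapping and near-identical genes are uncertain. All 9 libraries of the experiment were fitted together in edgeR 4.0.16 (R 4.3.3) after filterByExpr and TMM scaling, with the quasi-likelihood test, Benjamini-Hochberg adjustment and the study's FDR of 0.0001, although the study's methods name edgeR's exact test, which is given as an alternative. SE is the log2 fold change divided by the square root of F. CPM values are TMM-scaled.

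Libraries with the same number did not deviate together (r of -0.02 to -0.01), and the study's methods name no replicate block, so the fit has none. Replicates differed beyond counting noise, and none was a repeat of another. The difference between L-15 and Schneider’s medium was tested as an interaction over the 18 libraries of both. The steps were tested on simulated data. Figures used matplotlib 3.10.9.

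Named genes were those called, with separated libraries and a mean of 10 CPM or more: the 10 largest annotated rises and falls, the 3 largest whatever the annotation, up to 3 per list, the 5 most abundant called in each direction, all of the heme and iron lists, and the 5 largest annotated differences from L-15 in each direction. Other genes named were chosen after their values were seen, as was the use of the 48 h experiment. The members and lists were chosen with earlier results of these data known. Names and positions come from a partial annotation table and the text of the study, and no promoter or protein sequence was used. Alternatives were the exact test, DESeq2 1.42.0, RLE factors, no scaling beyond library size, other filters on low counts (none, or more than 1 CPM in 3 libraries), a fit of 6 libraries, the replicate block, an FDR of 0.05 and each library left out. The A20 experiment was not used here.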

Additional observations from a re-analysis of the deposited data

Results flagged for a closer look

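The 10 annotated genes with the largest called differences between the 2 media, in a joint test of both experiments, are given as values, with the change in L-15 minus the change in Schneider’s medium on the log2 scale. The change was higher in L-15 for AAEL008467 (cysteine synthase) by 3.73, AAEL009762 (CYP307A1) by 3.06, AAEL000834 (dimethylaniline monooxygenase) by 2.46, AAEL002130 (ecdysone inducible protein L2) by 2.38 and AAEL012014 (L-lactate dehydrogenase) by 2.36. The cysteine synthase rose in both media, and its FBS level was 2.23 ± 0.218 CPM in L-15 against 41.7 ± 31.0 CPM in Schneider’s medium (SD, n = 3). The difference was -3.14 for AAEL009384 (fibrinogen and fibronectin), -3.02 for AAEL000687 (glucosyl/glucuronosyl transferase), -2.61 for AAEL011789 (citrate synthase 2), -2.35 for AAEL009380 (phospholipase C beta) and -2.30 for AAEL001816 (glucosyl/glucuronosyl transferase). Of these 5, AAEL009384, AAEL000687, AAEL011789 and AAEL009380 did not pass in Schneider’s medium, with log2 fold changes of 0.19, 0.31, 0.04 and 0.12, and all 5 fell in L-15.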

How the results depend on the processing

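The number of called genes was 1818 and stayed within 1.5 times of this under RLE factors, library size alone, both filters and the fit of 6 libraries. DESeq2 called 3076 genes (1384 higher, 1692 lower) and an FDR of 0.05 gave 5815 (2863 higher, 2952 lower). Falls numbered 616 under library size alone and 615 in the fit of 6 libraries, against 984. The exact test called 2337 genes. Changes of more than 2-fold numbered 503 among the called genes, 773 by the exact test and 1147 at an FDR of 0.05. Leaving out 1 library gave 1198 to 1575 genes, 548 to 726 rises and 645 to 854 falls. The lowest total and the fewest rises came without FBS replicate 2, and the fewest falls without replicate 2 of 10 μM heme (650 without FBS replicate 2). For the difference from L-15, an FDR of 0.05 gave 7018 genes (3229 higher and 3789 lower in L-15) against 2822 (1009 and 1813), library size alone gave 1845 higher and 983 lower, and DESeq2 gave 1545 higher. The cause of these shifts was not tested.

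With the replicate number as a block, 1333 genes passed, 436 of them by more than 2-fold, and 2365 passed for the difference from L-15. Same-numbered libraries did not deviate together, which cannot show whether the samples were prepared in pairs.

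Of the 99 named genes that were called, all 99 kept their direction under each of the 18 alternatives and 76 kept their call under each. The 23 others lost it under 1 or more, mostly in fits with fewer libraries. The 10 named differences from L-15 passed under all alternatives run for them.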

Other observations

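AAEL008652 and AAEL008658 had nearly equal levels in Schneider’s medium, at 1868 and 1842 CPM with FBS and 550 and 539 CPM in 10 μM heme (log2 -1.76 and -1.77). Neighbouring identifiers also rose alike. AAEL009124, AAEL009127 and AAEL009128 had log2 fold changes of 3.80, 3.53 and 3.23, and AAEL009127 went from 18.7 to 216 CPM. No name was held here for any of these genes, the choice was made on their values, and whether they share reads was not tested.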
